A study of Mus musculus with 15 samples.

Results

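Matrix-degrading enzymes, their inhibitors and a protease receptor, 9 genes that are known from the secretome of senescent cells, were followed through 15 mouse liver RNA sequencing libraries. They are the matrix metalloproteinases Mmp2, Mmp12, Mmp13, Mmp14 and Mmp19, the tissue inhibitors Timp1, Timp2 and Timp3, and Plaur, the receptor of urokinase. They were chosen by symbol, and each symbol matched 1 of the 55849 gene rows. Young controls gave 5 libraries, aged controls gave 5, and mice that received both KSL0608-Se, an agent for which only a code name is used here, and irradiation gave 5. These groups are called young, aged and treated, and a number after the group is the replicate number of the label. The labels state neither ages in weeks, strain or sex nor a dose, and do not say how old treated mice were, so treatment and age cannot be told apart in either comparison of treated livers. Nothing in the labels says that the libraries came from separate animals, so the p-values describe spread among these libraries, which may be technical. Values are TPM, a length-corrected share of the library's transcripts. Sequencing depth is unknown, because TPM does not retain it, and a 0 is described as listed at 0.

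Matrix metalloproteinases are zinc enzymes, made as inactive precursors, that cut collagens, elastin and other matrix proteins. TIMP proteins block them by binding the active site. The urokinase receptor holds urokinase at the cell surface, where it turns plasminogen into plasmin, which in turn activates several of the metalloproteinases. In liver these genes are known from stellate cells, fibroblasts, endothelial cells and macrophages, and their balance bears on the turnover of scar matrix.

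The 9 genes spanned a wide range of levels. Mmp19 and Mmp14 stood highest in every group, and together they held 84.5 ± 3.95% of the summed TPM of the 9 genes in young livers, 77.3 ± 4.22% in aged livers and 72.9 ± 5.74% in treated livers (SD, n = 5). Timp2 and Timp3 followed, at group means of 4.38 to 8.94 TPM. Mmp2, Plaur, Mmp12 and Timp1 had group means between 0.176 and 3.54 TPM, and Mmp13 was lowest at 0.156 TPM or less. Mmp14 and Mmp19 overlapped in each group, both lay apart from Timp2 in each group, and Timp2 and Timp3 overlapped in each group. Among the lower genes most neighbours in the order overlapped, and Mmp13 lay apart from its neighbour in aged and treated but not in young libraries. Ranked by mean, Mmp12 was next to last in young livers and stood between Timp3 and Mmp2 in treated livers, where its libraries overlapped those of both neighbours. Mmp14 and Mmp19 changed places in treated livers, as did Plaur and Timp1. By the mean over the 15 libraries, 7 of the 9 genes reached the filter of 1 TPM used for testing. Timp1 and Mmp13 did not, at 0.811 and 0.0733 TPM. Mmp12, at 1.44 TPM, and Plaur, at 1.01 TPM, passed only through their higher values in treated livers.

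**Figure D1:**
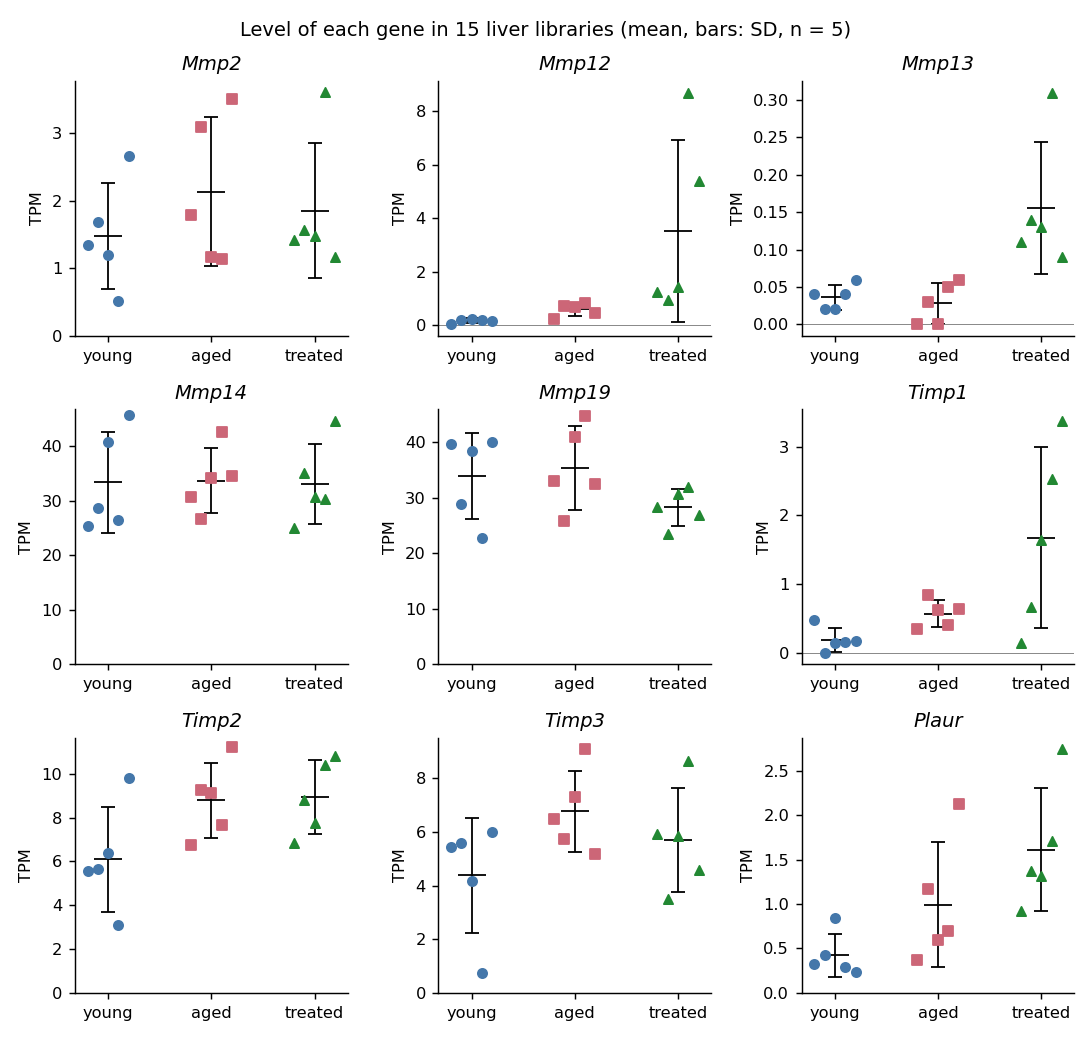
Level of each of the 9 genes in TPM (vertical axes, linear, a separate scale for each gene) in the young, aged and treated libraries; symbols are libraries, horizontal lines the mean and bars the SD (n = 5). Mmp12 reached 8.7 TPM in a treated library and 0.85 TPM at most in the other groups, while Mmp14 and Mmp19 covered much the same range in all 3 groups.

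Mmp12 and Mmp13 were the genes whose treated libraries all lay above all aged ones. Mmp12 encodes macrophage elastase, which cuts elastin and is made mainly by macrophages, and Mmp13 encodes a collagenase that in mice cuts fibrillar collagen. In GENCODE M21 both lie on chromosome 9 in a row of 9 neighbouring Mmp genes. The stretches before their annotated start sites are shown with those of Plaur and Timp1, since these are the 4 genes with the largest ratios of treated to young means. Each stretch is the 120 bases before a start site in RefSeq on GRCm38.p6, plus strand, 5′ to 3′, and capitals mark the heptamer TGANTCA, the recognition sequence of AP-1 factors, which reads the same on both strands.
Mmp12, chr9:7347254-7347373: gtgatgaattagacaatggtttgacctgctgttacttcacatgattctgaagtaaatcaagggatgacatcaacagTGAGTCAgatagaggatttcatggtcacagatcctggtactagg
Mmp13, chr9:7272394-7272513: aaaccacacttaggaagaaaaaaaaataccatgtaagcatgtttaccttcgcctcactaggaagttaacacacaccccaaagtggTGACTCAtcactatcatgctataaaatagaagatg
Plaur, chr7:24462363-24462482: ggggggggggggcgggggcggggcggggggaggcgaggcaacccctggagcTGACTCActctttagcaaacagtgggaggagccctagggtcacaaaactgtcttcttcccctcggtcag
Timp1, chrX:20870046-20870165: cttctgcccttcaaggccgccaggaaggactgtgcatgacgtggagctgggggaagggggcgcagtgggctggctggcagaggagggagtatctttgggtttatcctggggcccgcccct

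The heptamer began 44 bases before the start in Mmp12, 35 in Mmp13 and 69 in Plaur. RefSeq lists a further start for Mmp12, whose 250 bases upstream hold no match. Start sites were listed for 7 of the 9 genes, in 8 windows, and 3 genes had a match within 250 bases upstream. Timp1, Timp2, Timp3 and Mmp14 had none. Of all 27025 genes in the table, 7.82% had a match in any such window. A match describes these letters and is no evidence of binding.

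Mmp12 was measured at 0.04, 0.22, 0.26, 0.2 and 0.16 TPM in young 1 to 5, at 0.25, 0.73, 0.7, 0.85 and 0.48 TPM in aged 1 to 5 and at 1.24, 0.96, 1.42, 8.7 and 5.38 TPM in treated 1 to 5. All 5 treated libraries were above all 10 others, treated 4 and treated 5 by far the most, and 4 of 5 aged libraries were above all young ones. The means were 0.176 ± 0.0841, 0.602 ± 0.238 and 3.54 ± 3.41 TPM (SD, n = 5), so the treated mean was 5.88 times the aged mean, and the treated median 2.03 times the aged median. Mmp13 was measured at 0.04, 0.02, 0.02, 0.04 and 0.06 TPM in young, at 0, 0.03, 0, 0.05 and 0.06 TPM in aged and at 0.11, 0.14, 0.13, 0.31 and 0.09 TPM in treated libraries 1 to 5. Young and aged libraries of Mmp13 overlapped, and the lowest treated library stood above the highest of both, at levels so low that a few reads could set them. Mmp2 encodes gelatinase A, a type IV collagenase of stellate cells and fibroblasts, and stood at 1.48 ± 0.787 TPM in young livers, 2.13 ± 1.10 in aged livers and 1.85 ± 0.996 in treated livers. Its 3 groups overlapped, and its highest values were in treated 4 at 3.61 and aged 5 at 3.5 TPM.

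Mmp14 encodes a membrane-bound metalloproteinase that activates the Mmp2 precursor with the help of Timp2. It stood at 33.4 ± 9.22 TPM in young livers, 33.7 ± 5.92 in aged livers and 33.1 ± 7.31 in treated livers, with libraries from 25.1 to 45.7 TPM. Mmp19, a secreted metalloproteinase that acts on basement membrane proteins, stood at 33.9 ± 7.73, 35.3 ± 7.50 and 28.2 ± 3.34 TPM. The treated libraries of Mmp19, at 23.4 to 31.9 TPM, were all below the young and aged medians of 38.4 and 33.0 TPM, and overlapped both groups.

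Of the inhibitors, Timp1 is the inducible one in injured liver, Timp2 is made more steadily, and Timp3 is bound to the matrix and also blocks the shedding protease Adam17. Timp1 was measured at 0.48, 0, 0.14, 0.16 and 0.17 TPM in young, at 0.34, 0.84, 0.63, 0.41 and 0.64 TPM in aged and at 0.15, 0.67, 1.64, 2.53 and 3.37 TPM in treated libraries 1 to 5. Treated 3, 4 and 5 were above every other library, while treated 1 lay among the young ones. Timp2 stood at 6.10 ± 2.40 TPM in young livers, 8.79 ± 1.72 in aged livers and 8.94 ± 1.69 in treated livers. All 5 aged and all 5 treated libraries of Timp2 were above the young median, and young 5 at 9.79 TPM lay within both of their ranges. Timp3 stood at 4.38 ± 2.14, 6.76 ± 1.52 and 5.70 ± 1.93 TPM, and young 4 at 0.75 TPM was far below the other young libraries at 4.15 to 5.98. In young 4 the summed TPM of 10 sinusoidal endothelial markers, 87.9, was also the lowest of all libraries, the next being 122.8 in aged 2. Its sums of macrophage and monocyte, Kupffer cell, and B and plasma cell markers, at 108.5, 242.8 and 78.1 TPM, were lowest as well. So were its Timp2 at 3.11 and its Mmp2 at 0.51 TPM. The part of these low sums in the Timp3 value was not tested. Without young 4, limma called 1192 genes for treated against young livers, against 354 with it.  In GENCODE M21 Timp1 lies inside Syn1 and Timp3 inside Syn3 on the opposite strand, and whether the authors counted by strand is not given in the sources used here. Syn1 reached 1.39 TPM and Syn3 2.06 TPM at most in a library, so reads of these pairs may not have been told apart. Mmp19 likewise overlaps Tmem198b, which reached 3.65 TPM.

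Plaur, whose protein is also known as a surface marker of senescent cells, was measured at 0.33, 0.43, 0.84, 0.29 and 0.24 TPM in young, at 0.37, 1.17, 0.6, 0.7 and 2.13 TPM in aged and at 0.92, 1.37, 1.31, 1.71 and 2.74 TPM in treated libraries 1 to 5. Every treated library was above every young one, all treated and all aged libraries were above the young median, and aged and treated libraries overlapped. The means were 0.426 ± 0.242, 0.994 ± 0.699 and 1.61 ± 0.691 TPM (SD, n = 5).

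Aged against young livers asks which of these genes differ with age. The means of 8 of the 9 genes were higher in aged livers, Mmp13 being the exception, but none of the 7 tested genes passed the test. The differences in mean log2(TPM + 1) were 0.66 for Timp3 (SE 0.32), 0.51 for Timp2 (SE 0.22), 0.44 for Plaur (SE 0.25), 0.44 for Mmp12 (SE 0.36), 0.32 for Mmp2 (SE 0.28), 0.06 for Mmp19 and 0.04 for Mmp14. The smallest limma adjusted p was 0.484, for Timp2. Without young 4 the difference was 0.29 for Timp3, 0.33 for Timp2 and 0.16 for Mmp2, and that of Mmp2 was 0.21 without aged 2 and 0.18 without aged 5. Over all 12168 genes tested, 1.08% were called in this comparison, a share that would give less than 1 call among 7 genes. Below an unadjusted threshold of 0.05 lay 1 of the 7, Timp2, and 8.72% of all genes. None of the 9 genes had all aged above all young libraries, against 1.8% of the 27110 genes with any value above 0. The median difference over the 9 genes was 0.40 and over the 7 tested genes 0.44, beside 0.05 over all tested genes. The median over the 9 genes was 0.03 with quantile normalization, under which the differences of Mmp12 and Mmp14 turned below 0, and with median-ratio scaling those of Mmp14 and Mmp19 did.

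**Figure D2:**
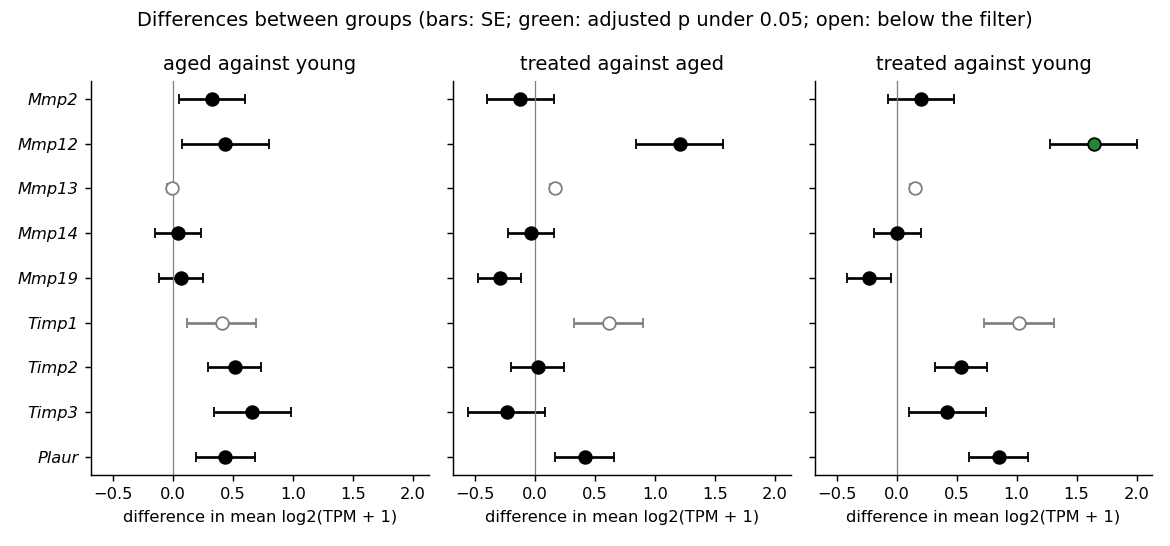
Difference in mean log2(TPM + 1) between groups (horizontal axis) for the 9 genes in the 3 comparisons, with its SE from limma (bars); open points are the 2 genes under the filter, from the fit without a filter. Mmp12 lies farthest to the right in both comparisons of treated livers, at 1.21 and 1.64, and is filled green only against young livers.

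Treated against aged livers sets the treated group beside the older controls, and it shares the aged libraries with the comparison above. Mmp12 had the largest difference, 1.21 (SE 0.36), and did not pass over all genes (limma adjusted p = 0.925, and 0.185 to 1 over the alternatives). Plaur differed by 0.41 (SE 0.25), Mmp19 by −0.30 (SE 0.18), Timp3 by −0.24 (SE 0.32), Mmp2 by −0.12 (SE 0.28), Mmp14 by −0.03 (SE 0.19) and Timp2 by 0.02 (SE 0.22), with a limma adjusted p of 0.925 or more for each. In the fit without a filter, over 27110 genes, Mmp13 differed by 0.17 (SE 0.04, limma adjusted p = 0.785) and Timp1 by 0.61 (SE 0.29, adjusted p = 0.785). None of the 7 genes was called, where 0.00822% of all tested genes were, a single gene, and 1 of the 7, Mmp12, lay below an unadjusted threshold of 0.05, as did 4.41% of all genes. Mmp12 was among the 7 only through its treated libraries, so this count is not taken as support for a rise. For 2 of the 9 genes, Mmp12 and Mmp13, every treated library was above every aged one, against 0.302% of genes with any value above 0. None of the 9 genes had every treated library below every aged one, a direction for which the share over all genes was not computed. The median over the 9 genes, 2 of them under the filter, was 0.02. Over the 7 tested genes it was −0.033, beside −0.00051 over all tested genes. Without both treated 4 and treated 5, an alternative added once the values were known, the difference of Mmp12 was 0.47 (adjusted p = 0.772).

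Treated against young livers shares libraries with both comparisons above. Mmp12 differed by 1.64 on the log2(TPM + 1) scale (SE 0.36, limma adjusted p = 0.021). The treated mean was 20.1 times the young mean, 12.8 times without treated 4, and the treated median was 7.1 times the young median. Of the 7 tested genes 1, Mmp12, was below the threshold, as were 2.91% of all tested genes. Because Mmp12 passed the filter only through its treated libraries, this call is not taken as support for a rise. The call ended without treated 5 (adjusted p = 0.0715), with treated 4 and 5 left out together (0.0765), without a filter (0.06), with a pseudocount of 5 TPM (0.0897), with quantile normalization (0.089) and in a fit of these groups alone (0.0555). It held without a filter at a pseudocount of 0.1 TPM (difference 3.27, limma adjusted p = 0.00531), a setting chosen after seeing the data. The outcome without a filter thus depended on the pseudocount. Without treated 4 Mmp12 fell under the filter, and when it was kept the difference was 1.29 (adjusted p = 0.0305). Plaur, which passed the filter in the same way, differed by 0.85 (SE 0.25, limma adjusted p = 0.0758, and 0.111 without a filter). It was below the threshold with a pseudocount of 0.1 TPM (0.0492), with library weights (0.026) or without treated 1 (0.0423), all in fits with the filter. Timp2 differed by 0.53 (SE 0.22, adjusted p = 0.208) and Timp3 by 0.42 (SE 0.32, adjusted p = 0.519). Without young 4 these differences were 0.35 and 0.055. Mmp19 differed by −0.23, Mmp2 by 0.20 and Mmp14 by 0.0049. That of Mmp2 was 0.014 without treated 4, 0.038 without young 4 and 0.36 without young 5. In the fit without a filter Timp1 differed by 1.02 (SE 0.29, limma adjusted p = 0.145) and Mmp13 by 0.16 (SE 0.04, adjusted p = 0.118). Below an unadjusted threshold of 0.05 lay 3 of the 7, Mmp12, Plaur and Timp2, and 17.8% of all genes. Mmp12 and Plaur were among the 7 only through their treated libraries, so this count is not taken as support either. For 3 of the 9, Mmp12, Mmp13 and Plaur, every treated library was above every young one, against 2.29% of genes with any value above 0. With quantile normalization the difference of Mmp13 was −0.29 and that of Mmp2 −0.031, and the median over all tested genes moved from 0.06 to −0.066.

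Summed markers of several other cell types were higher in the groups where the means of Mmp12, Timp1 and Plaur were higher. The sum of 10 sinusoidal endothelial markers was not. Its ratios of means were 1.02 for aged against young, 0.999 for treated against aged and 1.02 for treated against young livers. In bulk liver, fewer or more cells of a type and less or more RNA per cell cannot be told apart. The summed TPM of 16 macrophage and monocyte markers, all measured, was 108.5 to 261.3 in young, 339.4 to 825.5 in aged and 279.3 to 1334.4 in treated libraries. All 16 had higher means in aged than in young livers, and 14 of 16 higher means in treated than in aged livers. The sum of 10 Kupffer cell markers was 242.8 to 687.2, 624.5 to 1104.7 and 447.2 to 2346.1 TPM, and 9 of 10 were higher in treated than in aged livers. The exception, Cd163, averaged 6.17, 1.88 and 1.38 TPM (treated against young −1.50, limma adjusted p = 0.0416). In that comparison 2 of the 10 were called higher and 1, Cd163, lower, where 2.91% of all tested genes were called. The sum of 10 neutrophil markers was 6.3 to 20.8, 15.5 to 26.8 and 13.6 to 101.9 TPM, with all 10 higher in treated than in aged livers and Ly6g listed at 0 in the young group. No marker of the macrophage or Kupffer cell lists was listed at 0 throughout a group. The sum of 13 T and NK cell markers was 12.2 to 20.9 TPM in young, 21.2 to 324.6 in aged and 13.6 to 140.2 in treated libraries, with 11 of 13 means higher in aged and 13 of 13 higher in treated than in young livers. The sum of 10 B and plasma cell markers was 78.1 to 132.4, 536.4 to 5199.2 and 438.2 to 5280.9 TPM, so its aged mean was 16.7 times and its treated mean 15.2 times the young mean. Aged 5 and treated 4 weighed most in these means, and the medians were 114.5, 747.3 and 662.2 TPM. The sum of 10 cell cycle genes was 17.9 to 28.4, 24.9 to 113.4 and 30.1 to 47.7 TPM, with all 10 means higher in aged and in treated than in young livers. Between treated and aged livers these last 3 sums had ratios of means of 0.948, 0.907 and 0.908. Aged 5 had the highest aged value of each and weighed on these ratios. By median, the T and NK cell sum was 43.8 TPM in aged and 110.6 in treated livers. The cell cycle medians were 28.9 and 43.5 TPM, while the B and plasma cell median was lower in treated livers. Treated 5 had the highest macrophage sum, at 1334.4 TPM, and the highest Timp1 and Plaur, while treated 4, with 588.5 TPM, had the highest Mmp12 and Mmp13. Treated 1 had a macrophage sum of 279.3 TPM, below every aged library. Its Mmp12 at 1.24 TPM and its Mmp13 at 0.11 TPM, a very low level, were above every aged library. The part of macrophages in these values was not tested.

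Per 1000 TPM of macrophage and monocyte markers, Mmp12 stood at 0.955 ± 0.618 TPM in young livers, 1.52 ± 0.836 in aged livers and 5.68 ± 5.19 in treated libraries (SD, n = 5). The treated libraries ranged from 1.82 to 14.8 and the aged from 0.581 to 2.5, so on this ratio the groups overlapped. Plaur on the same ratio stood at 2.09 ± 1.04, 2.10 ± 0.868 and 2.78 ± 0.481, with libraries at 1.04 to 3.57, 1.08 to 3.28 and 2.05 to 3.29. Timp1 stood at 0.928 ± 0.731, 1.38 ± 0.617 and 2.49 ± 1.61, and Mmp13 at 0.191 ± 0.122, 0.0608 ± 0.0624 and 0.311 ± 0.170, each with overlapping groups. The ratios divide by markers that other cells also express in part, and what share of the differences the cells account for was not tested. The sum of 16 stellate cell and fibroblast markers was 340.0 to 736.2 TPM in young, 313.3 to 497.2 in aged and 362.3 to 409.7 in treated libraries. Against young livers, 6 of the 16 had higher means in aged and 10 of the 16 in treated livers, though the sum of means was 0.757 and 0.732 times the young one. Ecm1, a marker in this list, stood at 328, 189 and 155 TPM on average (treated against young, limma adjusted p = 0.0147). The sum of 10 hepatocyte markers was 97979 to 139476 TPM in young, 72309 to 106261 in aged and 73221 to 109207 in treated libraries, so the defining genes of the labelled tissue were present. Its aged mean was 0.803 times and its treated mean 0.772 times the young mean, with 0 of 10 and 1 of 10 markers higher. Cyp2e1, a hepatocyte enzyme, fell between treated and young livers (difference −1.32, limma adjusted p = 0.00976), and the part of these shifts in the results was not tested.

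**Figure D3:**
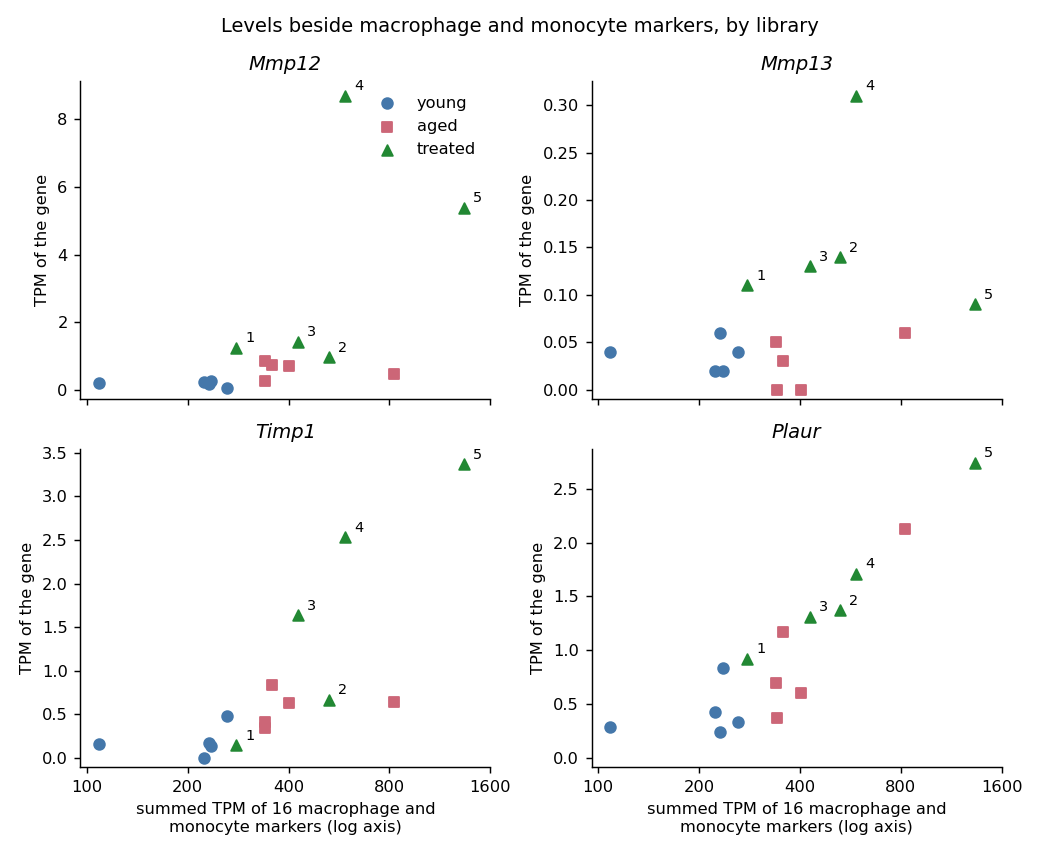
Level of Mmp12, Mmp13, Timp1 and Plaur in TPM (vertical axes) against the summed TPM of 16 macrophage and monocyte markers (horizontal axes, log scale) in the 15 libraries; treated libraries carry their replicate number. Treated 1 has a marker sum of 279.3 TPM and lies above all aged libraries for Mmp12 and Mmp13, and treated 5, at 1334.4 TPM, has the highest Timp1 and Plaur.

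The balance of the proteases and the inhibitors was taken as a ratio of summed TPM, with no test since the genes were chosen with earlier results known. The 5 Mmp genes summed to 69.0 ± 15.6 TPM in young livers, 71.8 ± 12.4 in aged livers and 66.9 ± 9.27 in treated livers. Mmp14 and Mmp19 held 67.3, 69.0 and 61.4 TPM of these means, so the ratio rests mostly on these genes and on Timp2 and Timp3. The 3 Timp genes summed to 10.7 ± 4.27, 16.1 ± 1.53 and 16.3 ± 3.79 TPM. The ratio was 5.30 to 12.4 in young, 3.55 to 5.215 in aged and 3.46 to 4.71 in treated libraries, so the aged and treated ranges overlapped and both lay below the young range, from aged libraries by a narrow margin. How often ratios of other gene sums lie apart in this way was not computed. The highest young ratio was in young 4, the library with low Timp3. Mmp12 made up 0.267 ± 0.143% of the Mmp sum in young livers, 0.844 ± 0.341% in aged livers and 4.90 ± 4.33% in treated livers. Timp1 made up 2.11 ± 1.87%, 3.53 ± 1.18% and 9.35 ± 6.44% of the Timp sum.

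**Figure D4:**
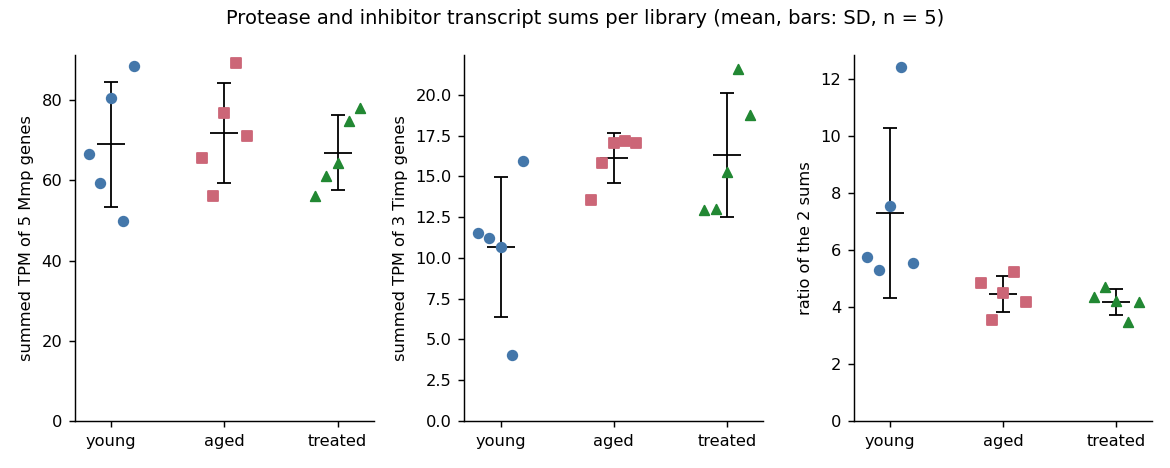
Summed TPM of the 5 Mmp genes, summed TPM of the 3 Timp genes and their ratio (vertical axes from 0) in the young, aged and treated libraries; symbols are libraries, horizontal lines the mean and bars the SD (n = 5). The aged and treated ratios lie at 5.215 or less and the young ones at 5.30 or more.

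Other genes of matrix turnover were taken from lists by role. Of 18 other Mmp genes, 3 were tested, and none passed in any comparison. The gelatinase gene Mmp9 stood at 0.618 ± 0.281 TPM in young livers, 1.06 ± 0.772 in aged livers and 1.61 ± 2.28 in treated livers. Its treated mean rests on treated 5 at 5.67 TPM, and was 0.598 TPM over the other treated libraries. Mmp15, which encodes a membrane-bound metalloproteinase, stood at 7.58 ± 3.25, 6.25 ± 1.48 and 4.24 ± 0.439 TPM (treated against young −0.62, limma adjusted p = 0.187), and Mmp23 at 1.31 ± 1.10, 2.12 ± 1.19 and 1.67 ± 0.584 TPM. Of 8 tested Adam and Adamts genes, 1 fell with age and none rose, where 1.08% of all tested genes were called. This was Adamts7, a secreted protease that cuts cartilage oligomeric matrix protein, at 3.35 ± 1.28 TPM in young livers, 1.22 ± 0.302 in aged livers and 0.966 ± 0.509 in treated livers. It was lower by 0.94 in aged than in young livers (difference −0.94, SE 0.22, limma adjusted p = 0.0484), a call lost in 10 of the 15 fits that each omit a library, where adjusted p reached 0.13. It was also lost with the replicate block (0.101), without a filter (0.118), with a pseudocount of 0.1 TPM (0.0761), in a fit of the compared groups alone (0.0509) and without young 4, aged 5 and treated 1 (0.075). Between treated and young livers Adamts7 fell (difference −1.14, SE 0.22, adjusted p = 0.00895), and this call held in all 15 such fits. Adam17, which sheds membrane proteins and is blocked by Timp3, stood at 3.74 ± 0.677, 4.64 ± 0.738 and 5.63 ± 1.34 TPM (treated against young 0.47, adjusted p = 0.144). Adam15 stood at 3.04 ± 1.13, 4.31 ± 0.935 and 5.05 ± 1.76 TPM and Adamts10 at 1.00 ± 0.205, 1.64 ± 0.848 and 2.16 ± 0.994 TPM, and neither passed. The medians over the 8 tested genes were 0.23 for age, 0.12 for treated against aged and 0.40 for treated against young livers, beside medians of 0.05, −0.0005 and 0.06 over all genes.

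Of 8 tested genes of the plasminogen system, 1 rose between treated and young livers, where 2.91% of all tested genes were called. None passed in the other comparisons. The gene that rose was Plgrkt, a plasminogen receptor of the cell surface, at 3.20 ± 1.03 TPM in young livers, 4.02 ± 0.964 in aged livers and 8.39 ± 3.80 in treated livers (difference 1.10, SE 0.25, limma adjusted p = 0.0236). The call was lost when young 2, young 3, treated 2, treated 3 or treated 5 was omitted, where adjusted p reached 0.0672, without a filter (0.0684) and in a fit of the compared groups alone (0.0528). Plau, which encodes urokinase, the ligand of the Plaur receptor, stood at 0.618 ± 0.218, 1.13 ± 0.520 and 1.40 ± 0.822 TPM and did not pass. Serpine2, which encodes an inhibitor of urokinase and thrombin, stood at 1.39 ± 0.265, 2.80 ± 1.15 and 2.15 ± 0.794 TPM (aged against young 0.63, adjusted p = 0.251). The plasminogen gene Plg, made by hepatocytes, stood at 1480 ± 432, 1246 ± 129 and 1193 ± 122 TPM. Of 8 tested partners of Plaur none passed. Itgb2, the integrin chain of leukocytes that binds the receptor, stood at 5.79 ± 2.18, 14.7 ± 8.85 and 19.1 ± 11.2 TPM (treated against young 1.43, adjusted p = 0.0825), and Itgam, its partner chain of myeloid cells, at 0.612 ± 0.361, 1.35 ± 0.809 and 1.43 ± 0.950 TPM. Vitronectin, Vtn, a matrix ligand of the receptor, stood at 2944 ± 790 TPM in young and 2304 ± 420 in aged livers, with treated livers at 2399 ± 334. Itgb3 stood at 1.97 ± 0.279, 1.64 ± 0.339 and 1.96 ± 0.487 TPM.

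Of 3 tested cysteine cathepsins, 1 rose between treated and young livers, where 2.91% of all tested genes were called. Ctss, a cathepsin of antigen-presenting cells, stood at 30.2 ± 10.5 TPM in young livers, 63.7 ± 37.0 in aged livers and 106 ± 43.0 in treated livers (difference 1.74, SE 0.37, limma adjusted p = 0.0182). This call ended without young 5, treated 2 or treated 5 (adjusted p up to 0.0575), without a filter (0.0569) and without both treated 4 and treated 5 (0.0949). Ctsb stood at 303 ± 61.8, 410 ± 41.6 and 455 ± 110 TPM (treated against young 0.57, adjusted p = 0.111), and Ctsl at 496 ± 138.0, 395 ± 65.2 and 433 ± 67.0 TPM. Of 4 tested genes among other inhibitors and activators none passed. Cd63, whose protein binds Timp1 at the cell surface, stood at 11.4 ± 6.12, 20.1 ± 12.3 and 22.3 ± 9.73 TPM, and the inhibitor gene Cst3 at 285 ± 14.2, 337 ± 36.0 and 350 ± 80.3 TPM. Bsg, which encodes an inducer of metalloproteinases, stood at 533 ± 66.3, 489 ± 83.2 and 455 ± 72.2 TPM, and Furin, whose product activates Mmp14, at 66.2 ± 27.1, 57.5 ± 11.4 and 46.8 ± 5.53 TPM. Of 15 matrix substrate genes, all tested, none passed. Bgn, the proteoglycan biglycan, stood at 65.0 ± 26.9, 101 ± 15.8 and 95.4 ± 16.3 TPM (aged against young 0.70, adjusted p = 0.192). The collagen genes Col4a2, of basement membrane, and Col1a1, of scar, did not pass either. Col4a2 stood at 5.52 ± 3.38, 3.94 ± 1.11 and 3.41 ± 0.857 TPM and Col1a1 at 1.82 ± 2.10, 2.42 ± 1.68 and 3.13 ± 2.17 TPM, and Dcn, the proteoglycan decorin, at 93.2 ± 28.8, 102 ± 25.6 and 119 ± 11.1 TPM. The median of the substrate genes was −0.02 for aged against young and 0.11 for treated against aged livers.

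**Figure D5:**
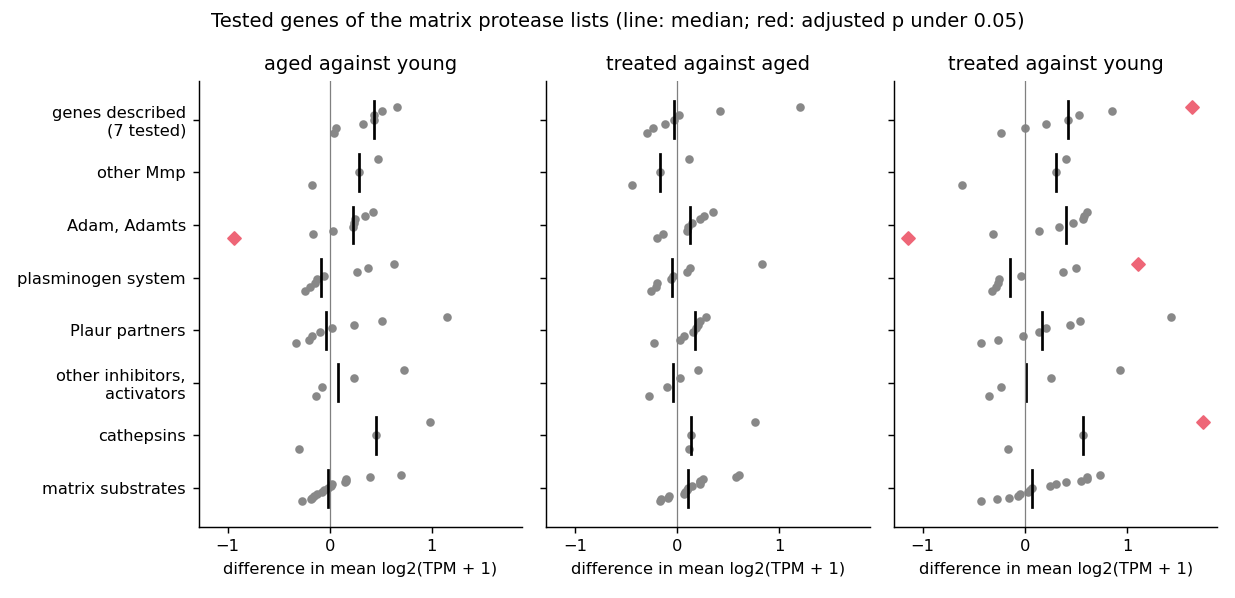
Difference in mean log2(TPM + 1) (horizontal axis) of every tested gene of the matrix protease lists (rows) in the 3 comparisons; points are genes, vertical lines list medians, and red diamonds genes with a limma adjusted p under 0.05. The diamonds are Adamts7 in aged against young, and Mmp12, Adamts7, Plgrkt and Ctss in treated against young, with none in treated against aged livers.

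The genes whose levels followed the 7 tested genes most closely were found by Spearman's rho of TPM over the 15 libraries, among 10952 genes with a symbol and a mean of at least 1 TPM. Libraries share their group and their cell makeup in such a comparison, and the closest of many genes are high by selection, so the values are descriptions. Mmp12 was most like Wfdc21 (rho 0.904), Eif4e3 (0.887) and the myeloid receptor gene Clec12a (0.875). Clec12a stood at 1.90, 3.04 and 7.64 TPM on average in young, aged and treated livers. Plaur was most like Tpd52 (0.954) and the leukocyte genes Bin2 (0.943) and Ly9 (0.936). Timp2 was most like Slc44a2 (0.943), Anxa2 (0.936) and Nfkbie (0.932). Timp3 was most like Fam174b (0.85), Ntn4 (0.843) and Aldh3a2 (0.839), and Mmp2 most like Egr1 (0.8), Islr (0.775) and Maff (0.771). Mmp14 was most like Map2k2 (0.921), Adrm1 (0.893) and Alg2 (0.879), and Mmp19 most like Slc26a1 (0.943), Miga2 (0.939) and Pigq (0.939).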

How the data were processed

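The authors deposited TPM. The submitters' processing notes name fastp, HISAT, RSEM and the build GRCm39, and versions and settings are not given in the sources used here. Each library sums to between 999999 and 1000001 TPM, given to 2 decimals, so depth is unknown and no counting interval or floor was computed. The 3 columns of group means in the table equal the library means and were not used. Expression was analysed as log2(TPM + 1) for the 12168 genes that averaged 1 TPM or more across libraries, which understates changes of low genes. All groups entered 1 limma 3.58.1 fit (R 4.3.3) with trend and robust moderation, with Benjamini-Hochberg adjustment over all tested genes and calls at an adjusted p under 0.05. The fit was also run on simulated data with independent normal noise for each gene and library. That setting holds no shifts in cell makeup and no odd libraries, so it does not bear on the calls made here. The 9 genes, the lists and the tests were chosen with earlier results of these data known. Genes named in the text are the 9 genes, from each list of matrix genes every called gene and up to 4 with the smallest p for age, and the 3 genes most like each tested gene. Marker lists are given as sums. Ly6g, Cd163, Cyp2e1, Ecm1, overlapping genes and neighbours in the Mmp row are named beside them outside this rule. Each of the 9 genes was also compared by whether the groups' libraries overlap. Marker and matrix lists share collagen genes, Dcn and Lum. Promoter windows came from RefSeq on GRCm38.p6, and gene neighbours from GENCODE M21, an older build than that of the authors, so no coordinates were carried over.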

Additional observations from a re-analysis of the deposited data

Results flagged for a closer look

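In 2 of 27 sets of 5 libraries, a library lay far from the other libraries of its group, and chance alone gives about 1 in 20 such sets. Both were in treated 4. Mmp2 there was at 3.61 TPM, with the next treated library at 1.57 TPM. Mmp13 there was at 0.31 TPM, with the next treated library at 0.14 TPM.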

How the results depend on the processing

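The count of passing genes among the 9 stayed at 0 for aged against young and for treated against aged livers in all 29 alternatives. For treated against young livers it was 1, and became 2 with a pseudocount of 0.1 TPM and with library weights, and 0 with a pseudocount of 5 TPM, without a filter, with a filter at 5 TPM (which drops Mmp12), with quantile normalization, in a fit restricted to both groups and without treated 4 and 5 together. Without single libraries it ranged from 0 to 2. The median over the 9 genes for aged against young livers moved from 0.40 to 0.11 with a pseudocount of 5 TPM and 0.029 with quantile normalization. For treated against young livers it moved from 0.42 to 0.16 with library weights, to 0.17 when young 4, aged 5 and treated 1 were all omitted, and ranged from 0.16 to 0.55 without single libraries. Signs turned for genes that had not passed. For aged against young they were Mmp12 (−0.041) and Mmp14 (−0.017) with quantile normalization, Mmp14 (−0.042) and Mmp19 (−0.015) with median-ratio scaling, Mmp19 (−0.013) with library weights, and Mmp14 (−0.046) and Mmp19 (−0.042) when those 3 libraries were omitted. For treated against aged they were Mmp14 (0.023) with library weights, Mmp2 (0.071) and Mmp14 (0.070) without those 3 libraries and Timp2 (−0.14) without treated 4 and 5 and (−0.033) without treated 4, genes kept. For treated against young they were Mmp2 (−0.031) and Mmp14 (−0.045) with quantile normalization, and Mmp14 with median-ratio scaling (−0.095) and without treated 4 and 5 (−0.11). Without single libraries, Mmp14 ranged from −0.048 to 0.16, −0.14 to 0.058 and −0.11 to 0.13 in the 3 comparisons, Mmp19 from −0.067 to 0.17 for age, and Timp2 and Mmp2 from −0.059 to 0.11 and −0.31 to 0.026 for treated against aged. The causes were not tested. Same-numbered libraries share only a number: over 15 pairs the correlation of their deviations from the group means was −0.249 to 0.309, and over 0.1 in 4. With the replicate block the passing counts were 0, 0 and 1, no call among the 9 genes changed, the age call of Adamts7 ended (adjusted p = 0.101), and the calls over all genes were 116, 1 and 373 against 132, 1 and 354. Over all genes the treated against young calls were 265 higher and 89 lower, 252 and 322 with quantile normalization, and 341 and 313 with median-ratio scaling. The alternatives with treated 4 left out, or treated 4 and 5, with the genes kept, and with a pseudocount of 0.1 TPM without a filter were chosen after seeing the data.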

Other observations

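Of the 9 Mmp genes in the row on chromosome 9, Mmp27, which encodes a metalloproteinase of little-known function, had group means in the same order as Mmp12 and is singled out here because of its values. The averages were 0.23, 0.66 and 1.67 TPM for young, aged and treated livers, with libraries at 0.08 to 0.33, 0.31 to 0.84 and 0.78 to 3.52 TPM. The treated libraries overlapped the aged ones slightly and lay above all young ones. Mmp3, which encodes stromelysin, reached 2.47 TPM in an aged and 1.84 TPM in a treated library and was at 0.11 TPM or less in young livers. Mmp7 averaged 0.26, 0.538 and 0.68 TPM with overlapping groups, and Mmp8, the neutrophil collagenase gene, 0.03, 0.126 and 0.164 TPM. Mmp1b, Mmp10 and Mmp20 were listed at 0 in all 15 libraries.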
